A study of Homo sapiens with 24 samples.

Results

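The genes that carry the nucleoside drug gemcitabine into cells, switch it on or off and set the nucleotide pools it competes with were followed across bladder cancer cells that differ in CD44. The set holds 10 of the 35993 genes counted. It was chosen by function, but with earlier results of these data known, so the choice was not blind to them. Its members are the transporters SLC29A1 and SLC29A2, the kinases DCK and CMPK1, and the deaminases CDA and DCTD. The others are the ribonucleotide reductase subunits RRM1, RRM2 and RRM2B and the dNTP hydrolase SAMHD1. The RNA came from J82 and RT-112, both established human bladder cancer lines, in 4 groups per line with 3 biological replicates each, 24 libraries in all. In each line the groups were the parental cells, which the labels mark as control, and newly established lines named CD44 Low, CD44 High and CD44v6 for low CD44, high CD44 and high CD44v6 receptor expression. CD44 is a surface receptor for hyaluronan, and v6 names a variable exon that some of its splice forms carry. How these lines were made, and whether any is a single clone, is not given in the sources used here. The labels name no drug exposure.

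Gemcitabine is a deoxycytidine analog used against bladder cancer. It enters cells mainly through equilibrative nucleoside transporters, is phosphorylated first by deoxycytidine kinase and then by UMP-CMP kinase and nucleoside diphosphate kinases, and is incorporated into DNA as the triphosphate. Cytidine deaminase inactivates the nucleoside, and dCMP deaminase acts on the monophosphate. The diphosphate form inhibits ribonucleotide reductase, the enzyme that makes deoxynucleotides from ribonucleotides, while SAMHD1 cleaves deoxynucleoside triphosphates and so shapes the pool with which the drug competes.

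Levels are given as CPM, a gene's count scaled to a common library size with TMM factors, and changes as log2 fold changes unless a percentage is given. The libraries held 16752825 to 24419670 counts. All 10 genes passed the filter on low counts in both lines. CD44 itself averaged 445 CPM in parental J82 cells, 279 in CD44 Low, 727 in CD44 High and 800 in CD44v6, and 317, 141, 420 and 448 CPM in the same groups of RT-112. Counts per gene do not separate the v6 splice forms. All 13 epithelial markers examined reached 10 counts in every RT-112 library, and 6 to 7 of them did so in all libraries of a J82 group, with sums of 10885 to 15279 and 6452 to 10602 CPM. Between the parental lines 11 of the 13 were lower and 2 higher in J82, where 31.0% of all genes were called in each direction. CDH1 (E-cadherin) averaged 308 to 356 CPM in the RT-112 groups. J82 groups averaged 0.508 to 5.71 CPM of CDH1 and 231 to 606 CPM of vimentin (VIM), with the urothelial marker UPK2 at 0 in every library and GATA3 below 1 CPM in each. The 11 leukocyte, endothelial and stromal markers examined summed to 15.4 to 29.5 CPM in J82 CD44 Low against 7.71 to 15.3 CPM in the other J82 groups, and to 6.85 to 8.58 CPM in RT-112 CD44 Low against 3.23 to 6.26 CPM in the other RT-112 groups. In each group 4 to 7 of the 11 were at 0. Of the 4 that passed the filter in each line, 1 was called in CD44 High against CD44 Low, lower in CD44 High. The list medians were -1.62 in J82 and -0.98 in RT-112, where 15.7% and 16.0% of all genes were called. The part of these markers in the differences of CD44 Low given here was not tested. PTPRC, which marks leukocytes, had at most 0.162 CPM in any library.

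The parental lines differed in most of these genes. Compared per kilobase of the principal transcript, RRM1 was the most abundant of the 10 in parental J82 (208 CPM per kb), followed by SAMHD1 (84.4), CMPK1 (71.3) and RRM2 (51.6). In parental RT-112 the 3 most abundant were RRM1 (90.7 CPM per kb), CMPK1 (86.7) and RRM2 (86.6), and SAMHD1 (7) was the 2nd lowest. SLC29A2 was the lowest in both, at 0.911 and 0.314 CPM per kb. In the test of J82 against RT-112 parental cells, 9 of the 10 genes were called, where 62.0% of the 17438 genes tested were called. A gene is called here where edgeR's quasi-likelihood test gives a Benjamini-Hochberg adjusted p under 0.05 over all genes tested. In J82, 5 were higher (31.0% of all genes): SAMHD1 by 3.59 on the log2 scale (SE 0.16, adjusted p = 2.25e-14), SLC29A2 by 1.52, DCK by 1.36, RRM1 by 1.20 and DCTD by 0.51. In RT-112, 4 were higher (31.0% of all genes): the J82 minus RT-112 difference was -1.22 for RRM2B, -0.82 for SLC29A1, -0.74 for RRM2 and -0.29 for CMPK1. The CMPK1 call was lost without J82 parental replicate 3 (adjusted p = 0.0659). CDA was not called (0.39, SE 0.29, adjusted p = 0.252). In bulk RNA, fewer cells expressing a gene and less RNA of it per cell cannot be told apart, here and in all comparisons that follow.

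**Figure D1:**
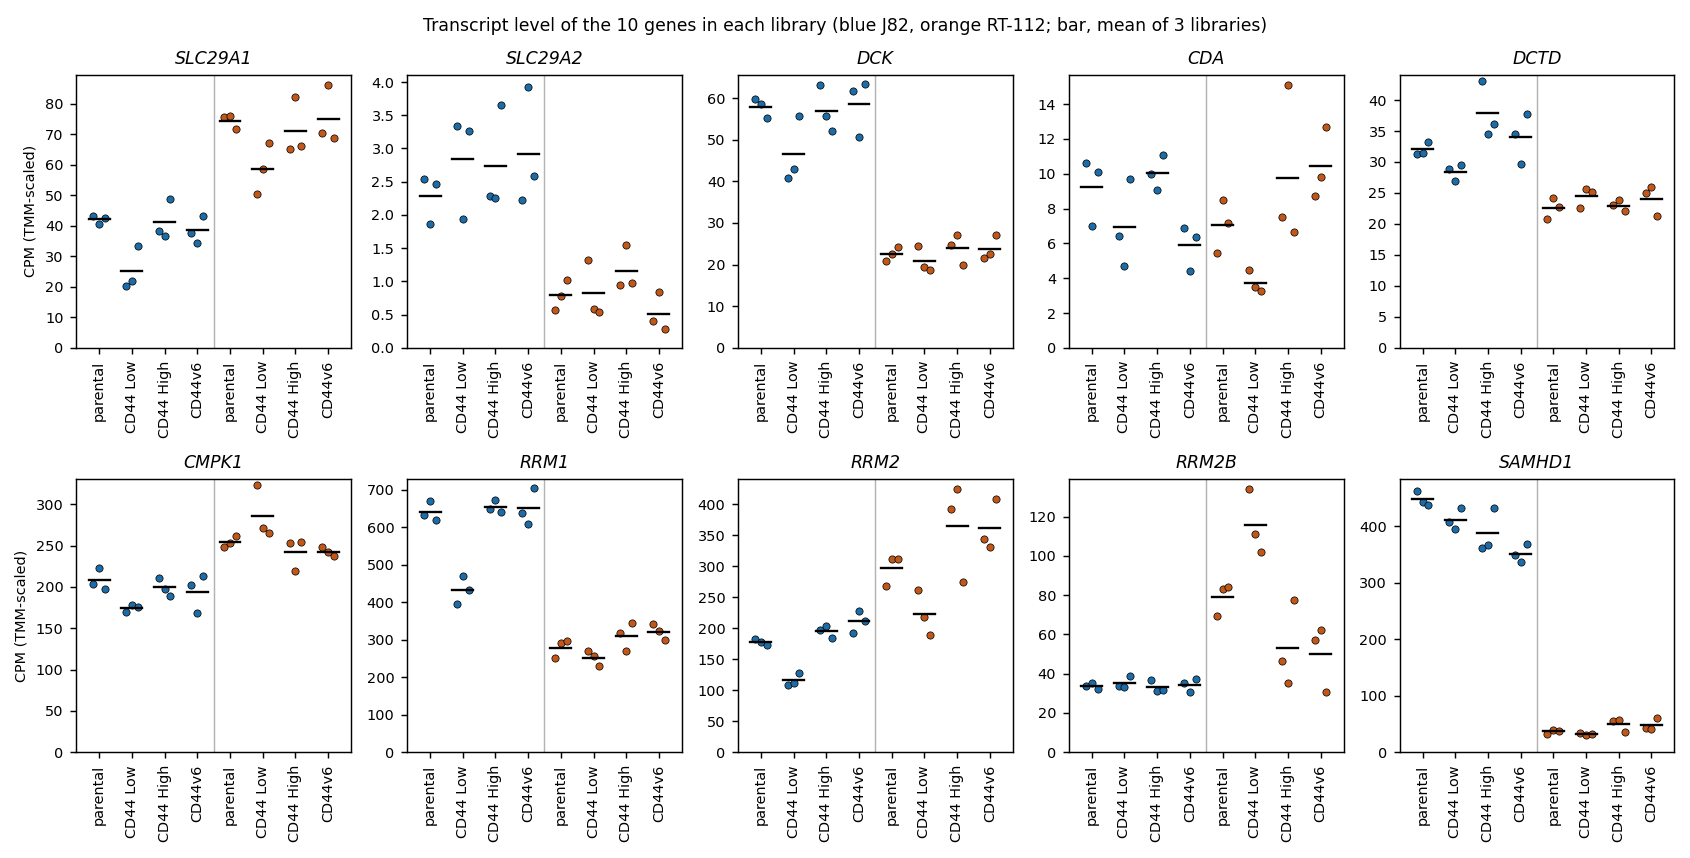
Level of each of the 10 genes in every library, in CPM after TMM scaling on a linear axis from 0, with the 4 groups of J82 in blue and of RT-112 in orange; points are libraries and bars the mean of 3. The means of RRM1 and RRM2 are lowest in CD44 Low in both lines, RRM2B sits highest in RT-112 CD44 Low (102 to 134 CPM), and SAMHD1 runs from 336 to 462 CPM in J82 and from 30.3 to 61.0 CPM in RT-112.

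Within the lines, all calls among these genes fell in contrasts with CD44 Low. J82 CD44 Low had less RRM1, RRM2 and SLC29A1 than parental cells (3 of 10 called, all lower, where 5.34% of all genes were called and 3.08% were lower); the other 7 estimates ran from -0.42 (CDA) to 0.31 (SLC29A2). CD44 High exceeded CD44 Low in J82 for SLC29A1, DCTD, RRM1 and RRM2 (4 of 10, where 15.7% of all genes were called and 8.83% were higher), and CD44v6 exceeded CD44 Low for SLC29A1, RRM1 and RRM2 (3 of 10, where 9.58% were called and 6.18% were higher). In RT-112, CD44 High had more CDA, RRM1, RRM2 and SAMHD1 and less RRM2B than CD44 Low (5 of 10, where 16.0% of all genes were called, 9.01% higher and 7.02% lower). The same 5 genes were called with the same signs in CD44v6 against CD44 Low (5 of 10, where 16.0% were called, 7.97% higher and 8.03% lower). Comparisons within a line share libraries: the CD44 Low libraries stand in each contrast with CD44 Low, and the parental libraries in each contrast with parental cells.

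Against parental cells, RT-112 CD44 Low had 0 of 10 genes called by edgeR (3.20% of all genes called), with 3 at an unadjusted p under 0.05 and 1, CDA, called by DESeq2; the estimates ran from -0.95 (CDA) to 0.52 (RRM2B). In CD44 High against parental cells edgeR called 0 of 10 in J82 (2.94% of all genes) and 0 of 10 in RT-112 (0.511%), with 2 and 1 at an unadjusted p under 0.05 and 0 called by DESeq2 in each. In CD44v6 against parental cells edgeR called 0 of 10 in J82 (2.60%) and none of them in RT-112 (0.614%), with 3 and 1 at an unadjusted p under 0.05. DESeq2 called 1 of these, SAMHD1, in J82 and 0 in RT-112. The estimates for CD44 High ran from -0.21 (SAMHD1) to 0.25 (DCTD and SLC29A2) in J82 and from -0.56 (RRM2B) to 0.53 (SLC29A2) in RT-112. Those for CD44v6 ran from -0.65 (CDA) to 0.34 (SLC29A2) in J82 and from -0.70 (RRM2B) to 0.52 (CDA) in RT-112. In the direct contrast of CD44v6 with CD44 High edgeR called 0 of 10 in each line, as it called 0% of all genes; 1 gene per line had an unadjusted p under 0.05 and DESeq2 called 0. Tests of the difference between the lines called 0 of 10 by edgeR in CD44 Low (1.06% of all genes), CD44 High (0.241%) and CD44v6 (0.138%) against parental cells and in CD44v6 against CD44 High (0.00573%), with 2, 1, 3 and 2 genes at an unadjusted p under 0.05. DESeq2 called 1, 0, 1 and 0 of them, CMPK1 in the first and SAMHD1 in the third; without RT-112 CD44 High replicate 3 edgeR called SAMHD1 in the second (-0.80, adjusted p = 0.0396).

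**Figure D2:**
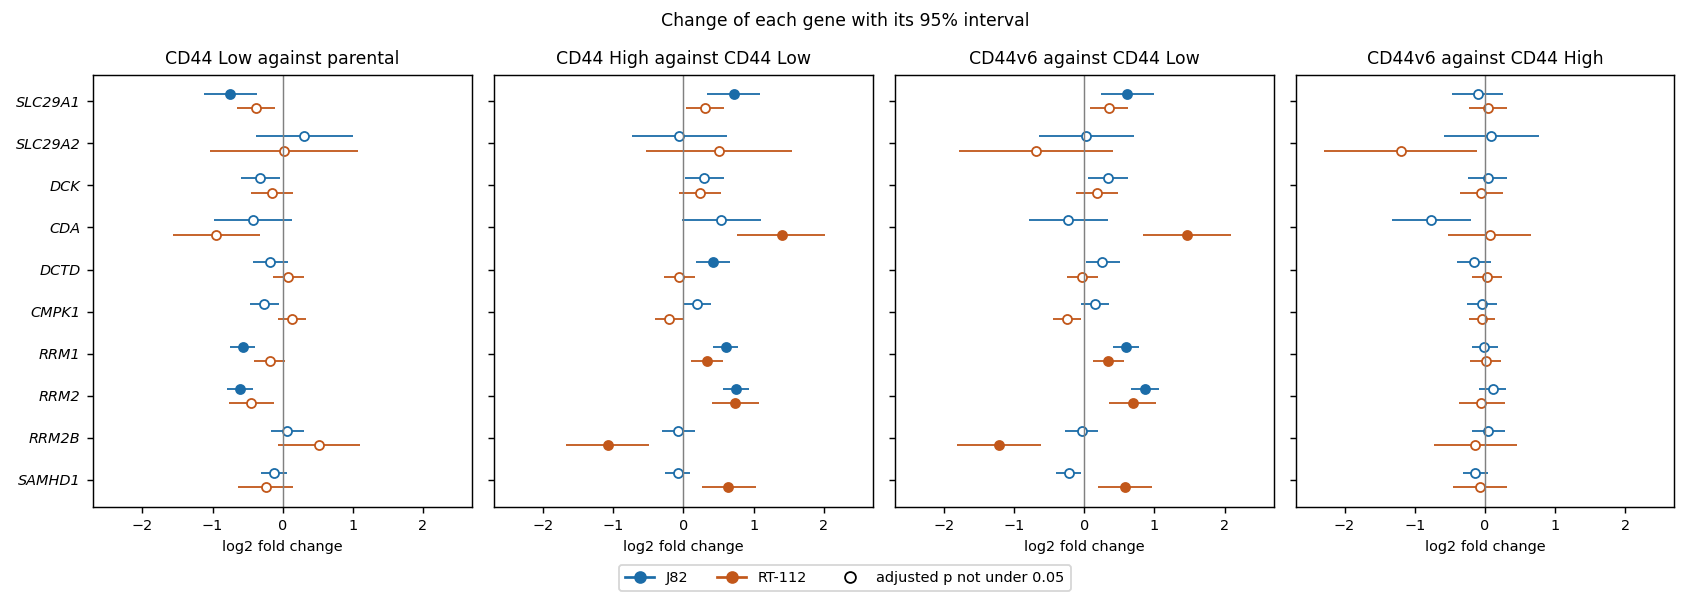
Log2 fold change of each gene in 4 comparisons, with its 95% interval from the edgeR fit, J82 in blue and RT-112 in orange; filled points have an adjusted p under 0.05. Filled points stand in the 3 panels that involve CD44 Low, RRM2 is filled in both lines in the 2 contrasts of CD44 High and CD44v6 with CD44 Low, and no point is filled for CD44v6 against CD44 High, where the RRM2 estimates are 0.11 and -0.05.

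The equilibrative transporter SLC29A1 (ENT1), a main entry route of gemcitabine, was lowest in J82 CD44 Low. In J82 its level was 43.4, 40.7 and 42.6 CPM in the 3 parental libraries, 20.4, 22.0 and 33.4 in CD44 Low, 38.4, 36.7 and 48.9 in CD44 High and 37.8, 34.5 and 43.2 in CD44v6. Each CD44 Low library was below each library of the other 3 groups, and those 3 groups overlapped. SLC29A1 fell by 40.4% in CD44 Low against parental cells (-0.75 on the log2 scale, SE 0.17, adjusted p = 0.0253) and was higher than in CD44 Low by 0.72 in CD44 High (adjusted p = 0.0134) and by 0.61 in CD44v6 (adjusted p = 0.0400). Each of these calls was lost when any 1 of several libraries was left out. Without parental replicate 1, 2 or 3 the estimate of the first was -0.73, -0.77 and -0.74. The first was lost without parental replicate 1, 2 or 3 (adjusted p = 0.0928, 0.0776 and 0.0847) and without CD44 Low replicate 1 or 2 (0.102 and 0.0977). The CD44 High call was lost without CD44 Low replicate 1 or 2 (0.0623 and 0.0586) or CD44 High replicate 3 (0.0558), and the CD44v6 call without CD44 Low replicate 1 or 2 (0.135 and 0.149) or CD44v6 replicate 1 or 3 (0.0819 and 0.106), with no filter (0.0618) and with the 2 groups alone (0.147).

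In RT-112, SLC29A1 ranged from 71.7 to 75.9 CPM in parental cells, 50.3 to 67.3 in CD44 Low, 65.3 to 82.3 in CD44 High and 68.9 to 86.3 in CD44v6. CD44 Low lay below parental cells and CD44v6 without overlap, and overlapped CD44 High. The log2 estimates were -0.38 for CD44 Low against parental cells (adjusted p = 0.125), 0.31 for CD44 High against CD44 Low (0.110) and 0.35 for CD44v6 against CD44 Low (0.0754), none of them called. Without CD44 Low replicate 3, the library with 67.3 CPM, the 3 estimates were -0.49, 0.43 and 0.47 and all passed (adjusted p = 0.0438, 0.0399 and 0.0310). DESeq2 called the last with all libraries (0.0488). The difference between the lines in the change from CD44 Low to CD44 High was 0.43 (SE 0.22, adjusted p = 0.244), and without J82 CD44 Low replicate 3 it was 0.73 (adjusted p = 0.0221).

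SLC29A2 (ENT2), the second equilibrative transporter, was scarce. It stood at 1.86 to 3.93 CPM in J82 (34 to 70 counts a library) and 0.281 to 1.55 CPM in RT-112 (5 to 31 counts). No within-line comparison called it, and at this depth its intervals were wide: CD44v6 against CD44 Low in RT-112 ran from -1.79 to 0.41 on the log2 scale. A known antisense gene overlaps it, and whether the counting used strand is not given in the sources used here.

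DCK, the kinase of the first and limiting phosphorylation step, differed by line more than by CD44 group. In J82 it stood at 59.7, 58.6 and 55.3 CPM in parental cells, 40.8, 43.0 and 55.8 in CD44 Low, 63.2, 55.7 and 52.1 in CD44 High and 61.6, 50.6 and 63.4 in CD44v6. CD44 Low replicates 1 and 2 were the lowest of the J82 libraries, while CD44 Low replicate 3 lay among the other groups. The estimate for CD44 Low against parental cells was -0.32 (SE 0.13, adjusted p = 0.172), that for CD44 High against CD44 Low 0.30 (adjusted p = 0.138) and that for CD44v6 against CD44 Low 0.34 (adjusted p = 0.131). Without CD44 Low replicate 3 they were -0.48, 0.46 and 0.50 and passed (adjusted p = 0.0423, 0.0297 and 0.0277); without CD44v6 replicate 2 the last was 0.44 (adjusted p = 0.0478). All 12 RT-112 libraries lay between 18.7 and 27.2 CPM, below every J82 library. DCK overlaps the same-strand gene MOB1B in the annotation, so reads could be split between them in counting.

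CMPK1, the kinase that adds the next phosphate, had estimates of opposite sign in the 2 lines, and neither passed the test alone. In J82 it was 204, 223 and 198 CPM in parental cells and 170, 178 and 176 in CD44 Low. In RT-112 it was 248, 253 and 262 CPM in parental cells and 323, 271 and 265 in CD44 Low, the highest group of all 8. CD44 High against CD44 Low gave estimates of 0.20 in J82 and -0.20 in RT-112 (adjusted p = 0.187 and 0.142). The difference between the lines was called, at 0.43 (SE 0.13, adjusted p = 0.0355), in a contrast that called 4 of the 10 genes: 3 higher (6.24% of all genes) and 1 lower (4.42%), of 10.7% called in all. For CD44v6 against CD44 Low the difference was 0.39 (adjusted p = 0.0692) and was not called. It passed with DESeq2 (0.0136), with median-of-ratios scaling (0.0462) and without J82 CD44v6 replicate 2 (0.55, adjusted p = 0.00797). It did not pass with upper-quartile scaling, no filter, an average of at least 50 counts, the replicate block or without any other single library of these groups.

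CDA, the deaminase that inactivates gemcitabine, was higher in CD44 High and CD44v6 than in CD44 Low in RT-112. There it stood at 5.44, 8.49 and 7.20 CPM in parental cells, 4.50, 3.47 and 3.25 in CD44 Low, 7.52, 15.1 and 6.64 in CD44 High and 8.74, 9.81 and 12.7 in CD44v6. The 3 CD44 Low libraries lay below the other 9, and replicate 2 of CD44 High was the highest of all. CDA rose from CD44 Low to CD44 High by 1.40 on the log2 scale (2.63-fold, SE 0.29, adjusted p = 0.00688) and to CD44v6 by 1.47 (SE 0.29, adjusted p = 0.00609). Both calls held in each alternative fit, including those without 1 library. Against parental cells the estimates were -0.95 in CD44 Low (adjusted p = 0.102 by edgeR, 0.0351 by DESeq2), 0.45 in CD44 High and 0.52 in CD44v6. The gene is of low abundance, with 60 to 262 counts per RT-112 library.

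In J82, CDA did not follow that order. It was 10.6, 7.01 and 10.1 CPM in parental cells, 6.41, 4.70 and 9.68 in CD44 Low, 9.98, 9.07 and 11.1 in CD44 High and 6.89, 4.40 and 6.36 in CD44v6. CD44v6 lay below CD44 High without overlap (-0.77, adjusted p = 0.474) and overlapped CD44 Low. The change from CD44 Low to CD44v6 was -0.23 in J82 against 1.47 in RT-112, and that difference was called (-1.70, SE 0.42, adjusted p = 0.0155; 3 of 10 genes called in that contrast, 1 higher and 2 lower, where 7.52% of all genes were called, 4.56% higher and 2.96% lower). For CD44 High against CD44 Low the J82 estimate was 0.54 (adjusted p = 0.178), which passed at 0.86 without CD44 Low replicate 3 (adjusted p = 0.0408) and at 0.58 with the replicate number as a block (0.0475). There the difference between the lines was -0.84 (adjusted p = 0.220). Set against DCK, the gene it opposes, CDA gave 5.47 to 8.36 DCK counts per CDA count in J82 parental cells, 5.76 to 9.15 in CD44 Low, 4.70 to 6.33 in CD44 High and 8.95 to 11.5 in CD44v6. In RT-112 the ratio was 2.64 to 3.84 in parental cells, 5.43 to 5.73 in CD44 Low, 1.81 to 3.29 in CD44 High and 2.12 to 2.48 in CD44v6. RT-112 CD44 Low lay above the other RT-112 libraries, while the J82 groups overlapped except that CD44v6 lay above parental cells and CD44 High. These ratios are descriptions and were not tested.

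DCTD, which deaminates dCMP and the drug's monophosphate, was 31.3, 31.5 and 33.3 CPM in J82 parental cells, 28.8, 27.0 and 29.5 in CD44 Low, 43.0, 34.5 and 36.2 in CD44 High and 34.5, 29.6 and 37.8 in CD44v6. Each CD44 Low library was below each library of the other groups. DCTD rose from CD44 Low to CD44 High by 0.42 on the log2 scale (SE 0.11, adjusted p = 0.0242), a call lost without CD44 Low replicate 1 or 2 (0.0587 and 0.0792) or CD44 High replicate 1 (0.107). In RT-112 the 12 libraries spanned 20.8 to 25.9 CPM and the same contrast gave -0.06 (adjusted p = 0.755). The lines differed in this change (0.51, SE 0.15, adjusted p = 0.0364).

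RRM1 is the large, catalytic subunit of ribonucleotide reductase, and RRM2 the small radical-bearing subunit that is made in S phase. Both genes were higher in CD44 High and CD44v6 than in CD44 Low in each line. In J82, RRM2 stood at 182, 178 and 173 CPM in parental cells, 109, 112 and 127 in CD44 Low, 197, 204 and 184 in CD44 High and 193, 228 and 212 in CD44v6. The CD44 Low libraries lay below all others, and CD44 High and CD44v6 lay above parental cells, also without overlap. RRM2 fell by 34.5% in CD44 Low against parental cells (-0.61, SE 0.09, adjusted p = 0.00152) and was higher than in CD44 Low by 0.75 in CD44 High (SE 0.09, adjusted p = 9.66e-05) and by 0.86 in CD44v6 (SE 0.09, adjusted p = 3.89e-05). Against parental cells the estimates of 0.14 in CD44 High (adjusted p = 0.488) and 0.25 in CD44v6 (adjusted p = 0.145) were not called.

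In RT-112, RRM2 stood at 268, 311 and 312 CPM in parental cells, 262, 218 and 189 in CD44 Low, 392, 425 and 275 in CD44 High and 344, 331 and 409 in CD44v6. Replicate 3 of CD44 High, at 275 CPM, lay within the parental range, and the other 5 libraries of CD44 High and CD44v6 lay above it. RRM2 was higher than in CD44 Low by 0.74 in CD44 High (SE 0.15, adjusted p = 0.00660) and by 0.69 in CD44v6 (SE 0.15, adjusted p = 0.0107). The change of -0.45 from parental cells to CD44 Low was not called (adjusted p = 0.131), although the fit on those 6 libraries alone called it (adjusted p = 0.0262). The difference between the lines in CD44 High against CD44 Low was 0.04, with a 95% interval from -0.36 to 0.43. RRM2 has processed pseudogenes and overlaps a same-strand gene model in the annotation, so reads could be split between them in counting.

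RRM1 followed RRM2 in J82. It stood at 633, 670 and 619 CPM in parental cells, 396, 470 and 432 in CD44 Low, 650, 672 and 640 in CD44 High and 639, 610 and 706 in CD44v6. The CD44 Low libraries were below the other 9, which overlapped. RRM1 fell by 32.6% in CD44 Low (-0.57, SE 0.08, adjusted p = 0.00180) and was higher than in CD44 Low by 0.60 in both CD44 High (adjusted p = 0.000379) and CD44v6 (adjusted p = 0.000574). In J82 the RRM1 and RRM2 calls in these 3 comparisons held in each alternative fit, and so did the RRM2 calls in RT-112.

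In RT-112 the RRM1 differences were smaller. It stood at 251, 291 and 296 CPM in parental cells, 270, 257 and 230 in CD44 Low, 317, 270 and 345 in CD44 High and 341, 323 and 300 in CD44v6. CD44v6 lay above CD44 Low without overlap, and CD44 High replicate 2 was level with the highest CD44 Low library. The estimate was 0.34 (SE 0.10) for both CD44 High (adjusted p = 0.0436) and CD44v6 (adjusted p = 0.0408) against CD44 Low. The first call was lost without CD44 Low replicate 1, 2 or 3 (0.0681, 0.0974 and 0.121) or CD44 High replicate 1 or 3 (0.129 and 0.115), with the 2 groups alone (0.115) and with no filter (0.117). The second was lost without any 1 of the 6 libraries (0.0555 to 0.115) and with no filter (0.0819). The opposite-strand gene RRM1-AS1 overlaps RRM1, so reads of either may be counted for the other if strand was not used.

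RRM1 and RRM2 fell and rose together in J82, and SAMHD1 rose with RRM2 in RT-112. The 250 bases before a RefSeq transcription start of each are shown (RefSeq, GRCh38.p14, 5′ to 3′ on the gene's strand). Capitals mark each CCAAT, the box bound by the trimeric factor NF-Y.

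RRM2 promoter, chr2:10122489-10122738, plus strand: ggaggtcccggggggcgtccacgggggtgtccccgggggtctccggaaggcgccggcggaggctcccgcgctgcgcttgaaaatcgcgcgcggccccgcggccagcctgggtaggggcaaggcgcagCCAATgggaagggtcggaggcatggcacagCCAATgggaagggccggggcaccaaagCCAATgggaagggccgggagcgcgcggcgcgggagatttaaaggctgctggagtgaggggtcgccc

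RRM1 promoter, chr11:4094435-4094684, plus strand: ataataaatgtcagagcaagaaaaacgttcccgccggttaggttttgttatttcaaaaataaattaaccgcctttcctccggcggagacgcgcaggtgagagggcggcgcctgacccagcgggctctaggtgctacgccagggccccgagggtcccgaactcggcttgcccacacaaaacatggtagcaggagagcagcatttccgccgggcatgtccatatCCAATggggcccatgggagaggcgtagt

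SAMHD1 promoter, chr20:36951709-36951958, minus strand: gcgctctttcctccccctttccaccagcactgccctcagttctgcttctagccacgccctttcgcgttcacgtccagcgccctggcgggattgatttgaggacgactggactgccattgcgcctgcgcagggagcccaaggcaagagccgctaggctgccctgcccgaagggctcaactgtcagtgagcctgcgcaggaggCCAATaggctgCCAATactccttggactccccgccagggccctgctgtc

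The RRM2 window shown has a CCAAT at 123, 93 and 66 bases before its start. That of RRM1 has 1 at 28 bases and that of SAMHD1 has 2, at 49 and 38 bases. The window of a second RRM2 start, not shown, has 1 CCAAT, at 249 bases. Of 35114 RefSeq promoter windows of this length, 32% hold a CCAAT on either strand and 2.93% hold 3 or more. Of the 10 genes, 8 had a promoter entry, and the windows of CDA, CMPK1, DCK, DCTD and SLC29A1 hold no CCAAT. The genes shown are thus those whose windows hold one. CDA also rose with RRM2 in RT-112 (Pearson r = 0.93), and SLC29A1 was called with RRM1 and RRM2 in the same J82 contrasts. Neither has a CCAAT in its windows. Any part of this box in the changes was not tested. The cell cycle element TTTGAA was found in the RRM1 window (reverse strand, 199 bases before the start) and at a second SLC29A1 start (33 bases before it), against 13.3% of all windows. None of TTTGGCGC, TTTCCCGC and TTTCGCGC, E2F-like sites held by 2.32% of windows, was found in the windows of these 8 genes. These matches describe letters, not binding.

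RRM2B (p53R2), the p53-inducible small subunit that pairs with RRM1 outside S phase, ran against RRM2 in RT-112. There it stood at 69.5, 83.0 and 84.0 CPM in parental cells, 134, 111 and 102 in CD44 Low, 46.7, 35.1 and 77.6 in CD44 High and 57.1, 62.2 and 30.9 in CD44v6. CD44 Low lay above all other libraries, replicate 3 of CD44 High lay in the parental range, and CD44v6 lay below it. RRM2B fell by 52.7% from CD44 Low to CD44 High (-1.08, SE 0.27, adjusted p = 0.0184) and fell by 56.9% to CD44v6 (-1.22, SE 0.27, adjusted p = 0.0121). The first call was lost without CD44 Low replicate 1 (adjusted p = 0.0715) or CD44 High replicate 1 (0.0747), and the second without CD44 Low replicate 1 (0.0506).

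In J82, RRM2B stayed between 30.5 and 38.6 CPM in all 12 libraries, with an estimate of -0.08 for CD44 High against CD44 Low (95% interval -0.31 to 0.16). The lines differed in this change by 1.04 (SE 0.32, adjusted p = 0.0397) and in that to CD44v6 by 1.17 (SE 0.32, adjusted p = 0.0271). Of 17 other p53 targets, RT-112 had 7 called in CD44 High against CD44 Low, all lower (7.02% of all genes were called lower; list median -0.53, against 0.02 for all genes tested), and their summed level was 1198 to 1352 CPM in CD44 Low and 679 to 1028 CPM in CD44 High. In J82 4 of the 17 were called, all higher (8.83% of all genes were called higher), with CDKN1A at 1.22 (adjusted p = 0.00236). Their part in the RRM2B difference was not tested.

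The transcript counts of the 2 small subunits were set against each other in each library, as a description that was not tested. In J82 the RRM2 count per RRM2B count was 5.38, 5.07 and 5.33 in parental cells, 3.23, 3.37 and 3.30 in CD44 Low, 5.33, 6.52 and 5.81 in CD44 High and 5.51, 7.48 and 5.66 in CD44v6. In RT-112 it was 3.86, 3.75 and 3.71 in parental cells, 1.95, 1.97 and 1.86 in CD44 Low, 8.40, 12.1 and 3.55 in CD44 High and 6.03, 5.32 and 13.2 in CD44v6. CD44 Low had the lowest ratio of each line, with no overlap, and in RT-112 CD44 High replicate 3 was below parental cells while the other CD44 High and CD44v6 libraries were above them. A ratio of counts within a library compares libraries, not the amounts of the 2 transcripts, which differ in length.

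**Figure D3:**
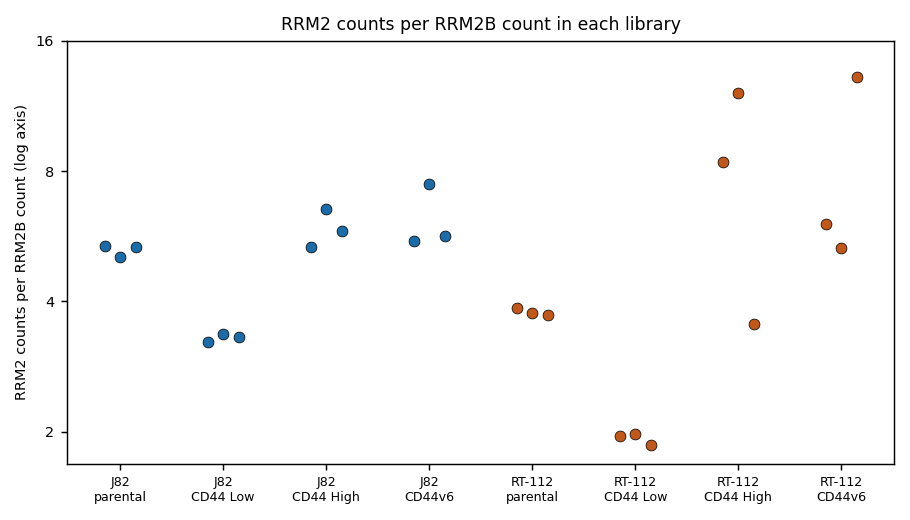
RRM2 counts per RRM2B count in each library on a log2-spaced axis, J82 in blue and RT-112 in orange, 3 libraries a group. CD44 Low lies at 3.23 to 3.37 in J82 and at 1.86 to 1.97 in RT-112, below every other library of its line, and CD44 High and CD44v6 of RT-112 spread from 3.55 to 13.2.

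Genes of DNA replication and S phase, the phase in which RRM2 is made, were read in the same contrasts. Of 22 such genes, J82 had 7 called in CD44 High against CD44 Low, 3 higher and 4 lower (list median -0.05, all genes -0.02, 15.7% called), and RT-112 had 5, of which 4 were higher and 1 lower (0.15, all genes 0.02, 16.0% called). In CD44v6 against CD44 Low, 4 of 22 were called in J82 (median 0.20, 9.58% of all genes called) and 3 of 22 in RT-112 (0.11, 16.0%), all higher. In CD44 Low against parental cells, 3 of 22 were called in J82 (-0.12, 5.34%) and 1 of 22 in RT-112 (-0.16, 3.20%), all lower. In CD44 High against CD44 Low, GINS1, a subunit of the replicative helicase, was higher by 0.59 and 0.68 on the log2 scale (adjusted p = 0.00528 in J82, 0.00133 in RT-112), and the flap nuclease FEN1 by 0.41 and 0.34. MCM6, a helicase subunit, was lower (-0.60 and -0.49, adjusted p = 0.0355 and 0.0469). In J82 the 22 genes summed to 4330 to 4582 CPM in parental cells, 3860 to 4330 in CD44 Low, 3924 to 4382 in CD44 High and 4600 to 4917 in CD44v6. CD44 Low and CD44 High overlapped, and CD44v6 lay above all other J82 libraries. In RT-112 the sums were 3588 to 3945, 3331 to 3916, 3208 to 4369 and 3681 to 4293 CPM, which overlapped. Their part in the RRM1 and RRM2 differences was not tested.

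SAMHD1, the hydrolase of deoxynucleoside triphosphates, had the largest difference between the parental lines among the 10 genes. In J82 it stood at 462, 443 and 437 CPM in parental cells, 407, 395 and 432 in CD44 Low, 362, 367 and 432 in CD44 High and 349, 336 and 369 in CD44v6. Each parental library was above each library of the other groups. The decrease in CD44v6 against parental cells, -0.35 (SE 0.08), lay at the threshold and was not called (adjusted p = 0.0501). It passed with DESeq2 (0.00300), with the replicate block (0.0313) and with median-of-ratios or upper-quartile scaling (0.0489 and 0.0458). It also passed with genes of at least 50 counts on average (0.0394) and without CD44v6 replicate 3 (0.0367). It did not pass with no filter, with all 24 libraries, with the 2 groups alone or without any other single library of these groups.

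In RT-112, where the parental level was 12.1-fold below that of J82, SAMHD1 stood at 32.8, 40.2 and 38.2 CPM in parental cells, 34.7, 30.3 and 31.7 in CD44 Low, 54.8, 57.2 and 35.9 in CD44 High and 42.4, 41.3 and 61.0 in CD44v6. CD44 High and CD44v6 lay above CD44 Low without overlap, and replicate 3 of CD44 High lay in the parental range. SAMHD1 rose from CD44 Low to CD44 High by 0.64 (SE 0.18, adjusted p = 0.0283) and to CD44v6 by 0.58 (SE 0.18, adjusted p = 0.0455). The first call was lost without CD44 Low replicate 1, 2 or 3 (0.0634, 0.0973 and 0.0640), without CD44 High replicate 1 or 2 (0.118 and 0.0867) and with the 2 groups alone (0.0585). The second was lost without CD44 Low replicate 1, 2 or 3 (0.0911, 0.131 and 0.0937), without CD44v6 replicate 3 (0.197) and with no filter (0.0690).

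The change of SAMHD1 differed between the lines, by -0.70 (SE 0.21, adjusted p = 0.0333) for CD44 High and by -0.81 (SE 0.21, adjusted p = 0.0196) for CD44v6 against CD44 Low. SAMHD1 is known to respond to interferon in some cells. All 16 interferon-stimulated genes tested were called higher in parental J82 than in parental RT-112 (list median 4.92, all genes -0.00). In that contrast 62.0% of all genes were called and 31.0% were higher. The 16 genes summed to 5565 to 6047 against 328 to 394 CPM. In RT-112, CD44 High had 6 of 13 such genes called lower (7.02% of all genes) and 2 higher (9.01%) than CD44 Low, while SAMHD1 was higher. In RT-112 CD44v6 against CD44 Low, 6 of 13 were lower (8.03% of all genes) and 1 higher (7.97%). Both contrasts called 16.0% of all genes. In J82, where SAMHD1 was not called, 5 of 16 were lower in CD44 High against CD44 Low (15.7% of all genes called) beside -0.08 for SAMHD1, 9 of 16 in CD44v6 against CD44 Low (9.58%) beside -0.22, and 6 of 16 in CD44v6 against parental cells (2.60%) beside -0.35. Their part in the SAMHD1 levels was not tested. The opposite-strand gene TLDC2 overlaps SAMHD1, so reads of either may be counted for the other if strand was not used.

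For CD44v6 against CD44 High, the intervals bound what these libraries could show. In J82 they ran from -0.08 to 0.30 for RRM2, from -0.19 to 0.18 for RRM1, from -0.24 to 0.32 for DCK, from -0.47 to 0.26 for SLC29A1 and from -1.33 to -0.20 for CDA. They ran from -0.40 to 0.09 for DCTD, from -0.25 to 0.17 for CMPK1, from -0.19 to 0.28 for RRM2B, from -0.32 to 0.04 for SAMHD1 and from -0.59 to 0.77 for SLC29A2. In RT-112 they ran from -0.37 to 0.28 for RRM2, from -0.22 to 0.23 for RRM1, from -0.35 to 0.25 for DCK, from -0.23 to 0.31 for SLC29A1 and from -0.52 to 0.66 for CDA. They ran from -0.19 to 0.24 for DCTD, from -0.23 to 0.15 for CMPK1, from -0.73 to 0.46 for RRM2B, from -0.45 to 0.32 for SAMHD1 and from -2.29 to -0.11 for SLC29A2. SLC29A2, the scarcest of the 10, had the widest interval in each line. The intervals are not adjusted for the number of genes tested. Those of CDA in J82 and SLC29A2 in RT-112 lay wholly on the negative side, but edgeR called neither gene there (adjusted p = 0.474 for CDA).

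Other genes of the pathway were read from lists in CD44 High against CD44 Low, where 15.7% of all genes were called in J82 and 16.0% in RT-112. NT5E (CD73), the ecto-5′-nucleotidase that turns extracellular nucleotide monophosphates into nucleosides, rose by 2.14 on the log2 scale in J82 and by 2.84 in RT-112 (SE 0.11 and 0.20, adjusted p = 2.15e-07 and 1.58e-05). Of 6 nucleotidases tested it was the 1 called in J82, while in RT-112 NT5C was also higher (1.23) and NT5C2 lower (-0.30).

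Among 16 other nucleoside and nucleotide kinases, 2 were called in J82 (15.7% of all genes called) and 4 in RT-112 (16.0%), all higher, so the J82 count was not above the share of all genes. The thymidine kinase TK1 rose by 0.40 (adjusted p = 0.0153) and 0.50 (adjusted p = 0.0171), and the thymidylate kinase DTYMK by 0.48 (0.0286) and 0.50 (0.00117); NME4 was higher in RT-112 (1.17). Of the other transporters and analog efflux pumps, 1 of 6 was called in J82, near the 15.7% of all genes, and 3 of 6 in RT-112 (16.0% of all genes). The efflux pump ABCG2 rose in J82 (0.82 on the log2 scale, adjusted p = 0.0225) but fell in RT-112 (-0.78, adjusted p = 0.00298), a called difference between the lines (1.63, SE 0.27, adjusted p = 0.000402). ABCC4 (0.76) and ABCC10 (0.55) rose in RT-112.

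In thymidylate synthesis and nucleotide pools, 4 of 13 genes were called in J82 (15.7% of all genes called) and 0 of 13 in RT-112 (16.0%). In J82, adenosine deaminase ADA (0.90, adjusted p = 0.0113), PNP (0.57) and SHMT2 (0.53) were higher and the thymidine phosphorylase TYMP lower (-0.49). Of 5 genes of de novo pyrimidine synthesis, 0 were called in J82 and 1, CAD, in RT-112 (0.46, adjusted p = 0.0203), beside the same shares of all genes. The median change of these lists lay between -0.01 and 0.32, beside 0.36 in J82 and 0.32 in RT-112 for the 10 genes and -0.02 and 0.02 for all genes tested.

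**Figure D4:**
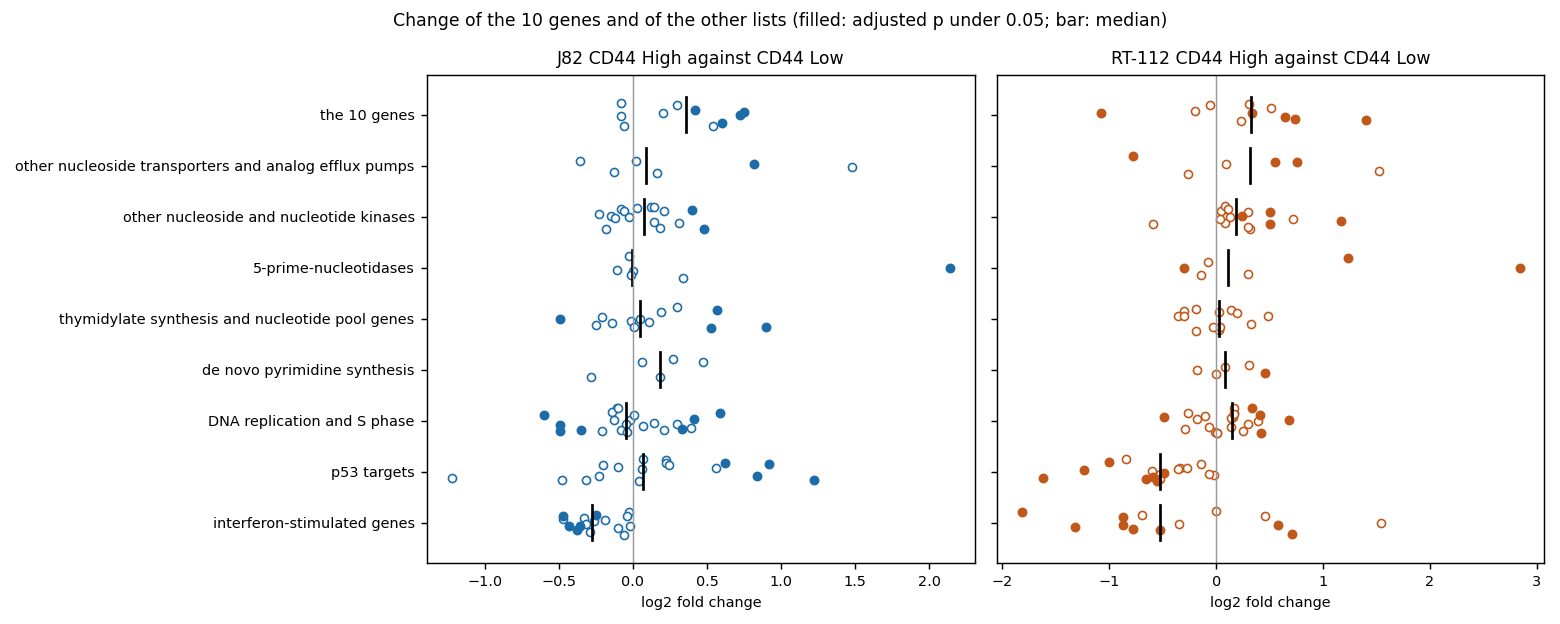
Log2 fold change of single genes in CD44 High against CD44 Low for the 10 genes and 8 other lists, J82 left and RT-112 right, each panel with its own axis range; filled points have an adjusted p under 0.05 and bars are list medians. The point farthest right in each panel is NT5E (2.14 and 2.84), and p53 targets lie mostly left of 0 in RT-112, with a median of -0.53.

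Over the 12 libraries of a line, the members' levels formed different patterns. In J82 RRM1 and RRM2 had a Pearson r of 0.91 (Spearman rho 0.66), and SLC29A1 and RRM1 0.83 (0.62). In RT-112 RRM2 and CDA had 0.93 (0.94) and CDA and RRM2B -0.86 (-0.84). The libraries of a line share 4 groups, so these values, on log2 CPM with a pseudocount of 1, restate group differences in part. After subtracting each line's mean over all 24 libraries, the gene most like RRM2 among 8800 searched was MEGF6 (r = 0.97), followed by TFDP1 (0.95) and CDCA5 (0.92). For RRM2B it was HIF1A (0.95), for RRM1 PSMC3 (0.93), for SLC29A1 TUBA4A (0.92), for SAMHD1 STMN1 (0.92), for DCK DSCC1 (0.89), for CMPK1 PRPS1 (0.88), for CDA RNF115 (0.84), for DCTD SSR3 (0.82) and for SLC29A2 NBPF11 (0.71). These are the highest of many correlations and are given as a description.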

How the data were processed

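Total RNA of 24 cultures was sent to a company for sequencing, as the labels' protocols state. What the authors deposited is a single table holding raw, unnormalized counts by gene symbol. HISAT2, StringTie and the build GRCh37 are named in the submitters' processing notes, without versions; annotation and strand use are not given in the sources used here. All libraries matched a label, and 0 columns were unmatched. The genes and lists were chosen with earlier results of these data known. By the naming rule the 10 genes are reported in each comparison, with genes that were not called given in part by their range; list genes are named where both lines call them with 1 sign (at most 3 per list), and otherwise the 1 called gene per line with the largest change. NT5C, NT5C2, NME4, ABCC4, ABCC10, PNP, SHMT2 and TYMP were named after their values were seen. The result of 1 list gene is not reported here.

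The tests used edgeR 4.0.16 under R 4.3.3: filterByExpr, TMM factors, and quasi-likelihood F-tests per line on its 12 libraries (15951 genes in J82, 15645 in RT-112), two-sided, adjusted by Benjamini-Hochberg. Parental lines and differences between lines were tested over all 24 libraries (17438 genes). Intervals are 95% intervals of the log2 fold change. At 16752825 to 24419670 counts per library, replicate pairs differed beyond sampling noise (chi-square per degree of freedom 6.42 to 63.7, averaged over genes). The spread of replicates thus added to counting error. This average does not speak for scarce genes such as SLC29A2, with 5 to 31 counts per RT-112 library. Replicates are biological per the series text. In simulated data for CD44 High against CD44 Low, 76.0% (J82) and 85.0% (RT-112) of genes changed by a log2 of 1 were called. Changes smaller than 1 were not simulated, so these rates do not apply to the smaller estimates given here.

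Replicate numbers are shared between groups. Once group means were subtracted from log2 CPM, libraries of the same number correlated above 0.1 in every pair in 1 of 12 comparisons, J82 CD44v6 against CD44 High (0.11, 0.11 and 0.25); this pairing comes from the data, not the labels. Alternatives were other scalings, omitting the filter, requiring an average of 50 counts, DESeq2 1.42.0, a replicate block, other sets of libraries, and leaving out each library. GENCODE 29 and RefSeq tables (GRCh38, 34000 of 35993 symbols matched) gave transcript lengths, overlaps and promoters, and may differ from the annotation used for counting. Figures were drawn with matplotlib 3.10.9.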

Additional observations from a re-analysis of the deposited data

Results flagged for a closer look

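For 7 values of the 10 genes, the change between CD44 groups differed between the lines by a test of the difference itself (J82 change minus RT-112 change, edgeR over 24 libraries). In CD44 High against CD44 Low these were RRM2B (1.04, SE 0.32, adjusted p = 0.0397), SAMHD1 (-0.70, SE 0.21, adjusted p = 0.0333), DCTD (0.51, SE 0.15, adjusted p = 0.0364) and CMPK1 (0.43, SE 0.13, adjusted p = 0.0355). In CD44v6 against CD44 Low they were CDA (-1.70, SE 0.42, adjusted p = 0.0155), RRM2B (1.17, SE 0.32, adjusted p = 0.0271) and SAMHD1 (-0.81, SE 0.21, adjusted p = 0.0196). RRM2B and SAMHD1 changed within RT-112, with estimates near 0 in J82 for CD44 High; DCTD changed within J82. CMPK1 was called in neither line alone.

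The RRM2B difference in CD44 High against CD44 Low was lost without 9 of the 12 libraries, each taken singly, and kept without J82 CD44 Low replicate 3, RT-112 CD44 Low replicate 3 or RT-112 CD44 High replicate 3 (estimates 0.82 to 1.43, adjusted p up to 0.102). That of SAMHD1 was also lost without 9 of 12, and kept without J82 CD44 Low replicate 2 or replicate 3 of either CD44 High group (-0.88 to -0.57, up to 0.0993). That of DCTD was lost without J82 CD44 Low replicate 1 or 2, J82 CD44 High replicate 1, RT-112 CD44 Low replicate 2 or 3, or RT-112 CD44 High replicate 1 or 3 (0.41 to 0.60, up to 0.108). That of CMPK1 was lost without replicate 1 or 2 of J82 CD44 Low or J82 CD44 High, RT-112 CD44 Low replicate 1 or RT-112 CD44 High replicate 2 (0.37 to 0.50, up to 0.116).

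In CD44v6 against CD44 Low, the CDA difference was lost without J82 CD44 Low replicate 3 (-1.31, adjusted p = 0.0564) or RT-112 CD44v6 replicate 3 (-1.53, 0.0516). That of RRM2B was lost without J82 CD44 Low replicate 2 (adjusted p = 0.0634), J82 CD44v6 replicate 3 (0.0507), RT-112 CD44 Low replicate 1 (0.0658) or RT-112 CD44v6 replicate 3 (0.0693). That of SAMHD1 was lost without J82 CD44 Low replicate 3 (0.0588), RT-112 CD44 Low replicate 2 (0.0675) or RT-112 CD44v6 replicate 3 (0.0741). With the replicate number as a block the calls of RRM2B (adjusted p = 0.0699) and SAMHD1 (0.0550) in CD44 High and of RRM2B in CD44v6 (0.0528) against CD44 Low were lost, and with no filter those of DCTD (0.0509) and SAMHD1 (0.0683) in CD44 High against CD44 Low. The estimates of all 7 kept their sign without any single library.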

How the results depend on the processing

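Of 20 calls of the 10 genes within lines, 10 held in every alternative run: RRM1 and RRM2 in J82 in 3 comparisons, and CDA and RRM2 in RT-112 in the 2 contrasts with CD44 Low. Between parental lines 8 of 9 held, and of the 7 differences between lines 0 did. No called value changed sign. Of 2863 recomputed values of single genes, 134 changed sign, all uncalled in both fits (smallest adjusted p 0.724). Counts of the 10 genes called moved by over 1.5 times as follows. In J82 CD44v6 against parental cells the count was 1 in place of 0 with median-of-ratios or upper-quartile scaling, a mean of at least 50 counts, DESeq2 and the replicate block. In RT-112 CD44v6 against CD44 Low it was 3 in place of 5 with no filter and with the replicate block, and in CD44 High against CD44 Low 3 in place of 5 with the block and with the 2 groups alone. The difference between lines in CD44 High against CD44 Low gave 2 in place of 4 with no filter and with the block. RT-112 CD44 Low against parental cells gave 1 in place of 0 with DESeq2 and 3 with the 2 groups alone; the differences between lines in CD44 Low and in CD44v6 against parental cells each gave 1 in place of 0 with DESeq2. The cause of these moves was not tested.

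Leaving out 1 library gave 2 to 4 genes called in J82 CD44 Low against parental cells, 0 to 1 in CD44v6 against parental cells, 2 to 6 in CD44 High and 2 to 4 in CD44v6 against CD44 Low. In RT-112 it gave 0 to 1 in CD44 Low against parental cells and 2 to 4 in both CD44 High and CD44v6 against CD44 Low. Between parental lines it gave 8 to 9. For the differences between lines it gave 0 to 4 in CD44 High and in CD44v6 against CD44 Low and 0 to 1 in CD44 High against parental cells. The replicate block used numbers that the labels do not explain. It ended the RT-112 calls of RRM1 (adjusted p = 0.0747 in CD44 High and 0.0665 in CD44v6 against CD44 Low) and SAMHD1 (0.0562 and 0.0796), and 3 of the 7 differences between lines (RRM2B 0.0699 and SAMHD1 0.0550 in CD44 High, RRM2B 0.0528 in CD44v6 against CD44 Low). In 3 of 12 comparisons each library correlated best with its own number. Depth limits SLC29A2 most, at 5 to 31 counts in RT-112.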
